A study of Mus musculus with 8 samples.

Results

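The receptors for glucocorticoids and 8 of their target genes were followed across the dentate gyrus arrays of mice lacking Derlin-1 or Derlin-2. The members were taken by name: the receptor genes Nr3c1 and Nr3c2, and the targets Fkbp5, Sgk1, Tsc22d3, Zbtb16, Pdk4, Mt1, Mt2 and Hif3a. They are 10 of the 26894 genes named on the array and had 21 of its 56605 probes. Of these probes, 17 were kept among the 40001 that were well above background on both arrays of at least 1 group. Each member is described by its brightest kept probe, and all 10 of these probes were well above background on all 8 arrays. The 4 probes not kept, 1 each of Fkbp5, Sgk1, Tsc22d3 and Hif3a, were well above background on 0 arrays.

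Corticosterone, the main glucocorticoid of mice, rises with handling and other stressors and with the daily rhythm. It binds the glucocorticoid receptor, encoded by Nr3c1, and with higher affinity the mineralocorticoid receptor, encoded by Nr3c2, and both are abundant in the hippocampus. The bound receptors enter the nucleus, attach to response elements in DNA and raise a set of genes, among them Fkbp5, whose product dampens the receptor in return.

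Each group had 2 arrays of male C57BL/6 mice aged 8 to 9 weeks. Derlin-1 controls were homozygous for a floxed Derl1 allele and Derlin-2 controls for a floxed Derl2 allele, both without Cre. The KO mice of each line carried the same floxed alleles together with Cre recombinase under the nestin promoter, which is active in the neural lineage. Which cell types of the tissue recombined is not shown by the arrays. The samples were grouped by their titles, since the genotype given for the KO samples mentions no Cre. Whether the 2 arrays of a group came from separate animals or from pools, and the time of day, handling and method of killing, are not given in the sources used here, so the p-values measure the spread between these samples, which may be technical. The controls and KO samples of a line shared a slide, whereas line and slide cannot be told apart, so levels are compared within a line.

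The deleted genes were read first. Derl2 was lower on both Derlin-2 KO arrays than on both controls with each of its probes, at 7.82 and 7.92 against 9.10 and 8.73 for A_55_P2178203 (log2 difference -1.04, SE 0.14, adjusted p 0.214 in limma) and by -0.64 for A_51_P498831. The Derl1 probes pointed in opposite ways in the Derlin-1 line, A_51_P504522 from 10.85 and 10.76 in controls to 10.57 and 10.66 in KO and A_65_P08342 from 7.37 and 7.36 to 7.94 and 7.71, so they do not check the labels of that line. Where the probes lie relative to the floxed exons was not examined. The arrays were alike in detection, with 67.6% to 70.8% of probes well above background. All 7 of the granule neuron markers examined, Prox1 among them, were well above background on all 8 arrays, as were all 8 of the CA pyramidal markers. The second Derlin-2 control array had the largest spread around the mean of its line, with an SD over genes of 0.28 on the log2 scale against 0.19 to 0.25 on the other 7 arrays. It gave the highest value of the line for 31.1% of all genes and the lowest for 32.8%. The values of the members that rest on it are given below with and without it.

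No receptor or target passed the test of KO against control. In limma, 0 of the 10 members passed an adjusted p of 0.05 in the Derlin-1 line, where 0% of all genes did, and 0 of 10 in the Derlin-2 line, where 0.0454% of all genes did. At an unadjusted p of 0.05, 0 of 10 members passed in each line, against 4.24% of all genes in the Derlin-1 and 4.76% in the Derlin-2 line. For the difference between the lines, 0 of 10 passed either threshold, against 0.00505% and 4.56% of all genes. The median KO minus control difference of the members was -0.06 on the log2 scale in the Derlin-1 and -0.20 in the Derlin-2 line. The medians over all genes were -0.01 and 0.02. The Derlin-2 median of the members includes the second control. Without that array the difference of Mt1 went from -0.41 to -0.0015, of Tsc22d3 from -0.13 to 0.15 and of Hif3a from -0.69 to -0.23. These are bulk samples, in which fewer cells of a type and less RNA per cell cannot be told apart.

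Both KO arrays lay below both controls for 3 of 10 members in the Derlin-1 line (Nr3c2, Fkbp5 and Mt2), against 16.9% of all genes. In the Derlin-2 line they did so for 5 of 10 members (Fkbp5, Sgk1, Zbtb16, Mt2 and Hif3a), against 13.6% of all genes. For 0 of 10 members did both KO arrays lie above both controls in either line, against 17.2% of all genes in the Derlin-1 and 19.2% in the Derlin-2 line. The count of 5 depended on the scaling and was 2 after scaling to the 75th percentile and 1 in the deposited log2 values.

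**Figure D1:**
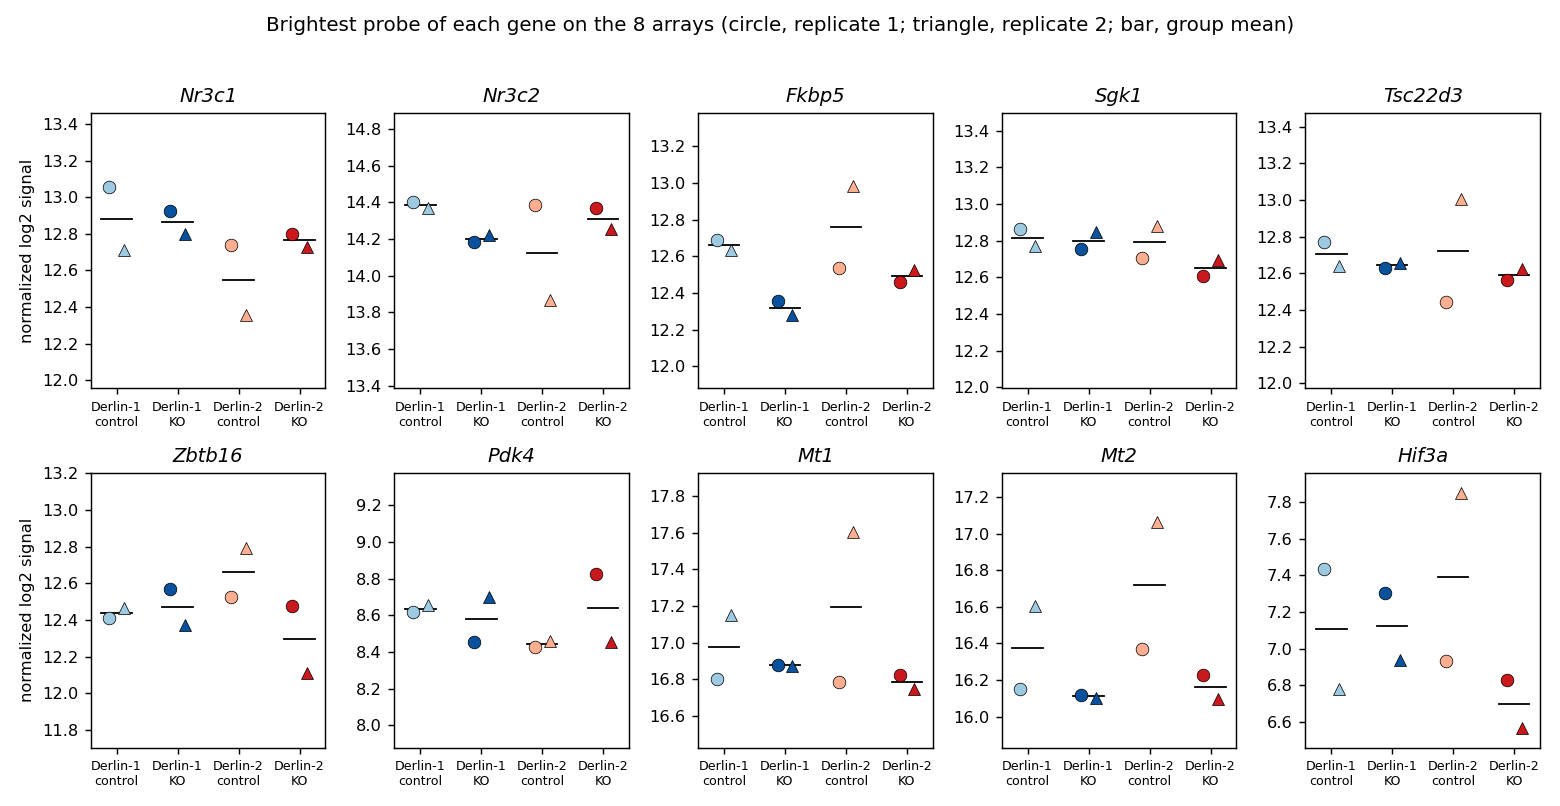
Normalized log2 signal of the brightest probe of each member (y axis, the same span in every panel) in the 4 groups (x axis), with a circle for replicate 1, a triangle for replicate 2 and a bar for the group mean. The second Derlin-2 control lies below the other 7 arrays for both receptors and above them for 7 of the 8 targets.

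The receptors are taken first. The brightest Nr3c1 probe (A_55_P1967885) read a log2 signal of 13.06 and 12.71 in Derlin-1 controls, 12.93 and 12.80 in Derlin-1 KO, 12.74 and 12.36 in Derlin-2 controls, and 12.80 and 12.73 in Derlin-2 KO. The KO values of the Derlin-1 line lay between the controls, and among the Derlin-2 arrays the second control stood 0.37 below the next array while the other 3 lay within 0.07 of each other. The log2 difference was -0.02 (95% confidence interval -0.45 to 0.41) in the Derlin-1 line and 0.21 (-0.22 to 0.65) in the Derlin-2 line, with limma's adjusted p at 0.9997 and 0.998. The second Nr3c1 probe (A_55_P2728068) gave 0.01 and 0.20, and both its Derlin-2 KO arrays were above both controls. Without the second Derlin-2 control, the Derlin-2 value of the brightest probe was 0.024.

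Nr3c2, the receptor that is occupied at resting hormone levels, read a log2 signal of 14.40 and 14.37 in Derlin-1 controls, 14.18 and 14.22 in Derlin-1 KO, 14.38 and 13.87 in Derlin-2 controls, and 14.37 and 14.25 in Derlin-2 KO (A_66_P110473). Both Derlin-1 KO arrays lay below both controls, and the second Derlin-2 control was again the lowest of the 8 arrays, 0.38 below the next array of its line. On the log2 scale KO differed from control by -0.18 (-0.61 to 0.24) in the Derlin-1 line and 0.19 (-0.24 to 0.61) in the Derlin-2 line. The difference between the lines, Derlin-1 minus Derlin-2, was -0.37 (-0.97 to 0.24) (limma, adjusted p 0.909). A further Nr3c2 probe, A_66_P132841, gave -0.02 in the Derlin-1 and 0.36 in the Derlin-2 line, and another, A_51_P377914, gave 0.21 and 0.28, so the sign in the Derlin-1 line was not shared by all 3 probes. All 5 probes of the 2 receptors had their lowest value of the Derlin-2 line on the second control.

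Fkbp5, the co-chaperone that lowers the affinity of the glucocorticoid receptor for its ligand, had both KO arrays below both controls in each line, as Mt2 did. Its brightest probe (A_55_P1952379) read a log2 signal of 12.69 and 12.64 in Derlin-1 controls, 12.36 and 12.28 in Derlin-1 KO, 12.54 and 12.98 in Derlin-2 controls, and 12.46 and 12.53 in Derlin-2 KO. The Derlin-1 groups lay 0.28 apart, more than the 0.05 and 0.08 between their replicates, whereas the first Derlin-2 control lay 0.01 above the nearer KO array and the second 0.45 above the first. KO minus control was, on the log2 scale, -0.35 (-0.73 to 0.04) in the Derlin-1 line and -0.27 (-0.65 to 0.12) in the Derlin-2 line, with unadjusted p-values of 0.0712 and 0.144 and adjusted p-values of 0.9997 and 0.970 in limma. The dimmer kept probe A_52_P481493 gave -0.19 and -0.24. Its Derlin-2 groups overlapped, with the first control at 7.88 below the KO arrays at 8.04 and 8.03 and the second control above them at 8.67.

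With limma fitted to the 4 arrays of the Derlin-1 line alone, the Fkbp5 value of -0.35 is the same by construction. Its unadjusted p was 0.0282 and its adjusted p 0.653 in that fit. The share of all genes under that unadjusted p was not counted for this fit. In the Derlin-2 line the value was -0.04 without the second control and -0.49 without the first.

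Sgk1 encodes a kinase that acts on ion channels and is raised early by both receptors. Its promoter windows are shown because 1 of them held the receptor's full palindrome. RefSeq windows of 300 bases around transcript starts (250 before and 50 after, GRCm38.p6) were matched for 8 of the 10 members, 15 windows in all, and searched on both strands for the receptor's hexamer TGTTCT and for 2 such hexamers facing each other with 3 bases between them. The hexamer was in 4 of the 15 windows, 3 of Sgk1 and 1 of Tsc22d3, against 19.0% of the 32851 windows searched. The windows searched leave out 1 chromosome. The inverted pair was in 1 window, of Sgk1, and in 3 of the 32851 windows. The 250 bases before that start are on the plus strand at chr10:21993640-21993889, with the hexamers, read on either strand, in capitals:
Sgk1: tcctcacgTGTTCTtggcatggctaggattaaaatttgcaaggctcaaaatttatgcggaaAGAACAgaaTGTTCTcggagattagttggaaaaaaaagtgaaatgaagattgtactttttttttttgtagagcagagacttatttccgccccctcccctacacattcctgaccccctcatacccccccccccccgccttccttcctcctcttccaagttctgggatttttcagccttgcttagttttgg

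On the arrays Sgk1 had the smallest range of the 10 members in each line, 0.11 (Derlin-1) and 0.27 (Derlin-2). Its brightest probe (A_51_P118237) read a log2 signal of 12.86 and 12.77 in Derlin-1 controls, 12.76 and 12.84 in Derlin-1 KO, 12.70 and 12.88 in Derlin-2 controls, and 12.61 and 12.69 in Derlin-2 KO. The Derlin-1 groups overlapped, and among the Derlin-2 arrays the second control was 0.18 above the next array, with the first control 0.01 above the nearer KO array. KO minus control came to a log2 difference of -0.02 (-0.29 to 0.25) and -0.14 (-0.41 to 0.13), with limma's adjusted p at 0.9997 and 0.998. Without the second Derlin-2 control the Derlin-2 value was -0.052. The match of letters is a description of the window and not of binding.

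Tsc22d3, which encodes the leucine zipper protein GILZ, read a log2 signal of 12.77 and 12.64 in Derlin-1 controls, 12.63 and 12.66 in Derlin-1 KO, 12.44 and 13.01 in Derlin-2 controls, and 12.56 and 12.62 in Derlin-2 KO (A_55_P1989061). The 2 Derlin-2 controls were the lowest and the highest of the 8 arrays and lay on opposite sides of the KO arrays. The log2 difference was -0.06 (-0.52 to 0.40) in the Derlin-1 line and -0.13 (-0.59 to 0.33) in the Derlin-2 line. The latter turned to 0.15 without the second control and was -0.41 without the first. The second kept probe, A_55_P2741276, gave -0.13 in each line and was also highest on the second Derlin-2 control.

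Zbtb16, a zinc finger repressor induced by the glucocorticoid receptor in many cell types, read a log2 signal of 12.41 and 12.47 in Derlin-1 controls, 12.57 and 12.37 in Derlin-1 KO, 12.53 and 12.79 in Derlin-2 controls, and 12.48 and 12.11 in Derlin-2 KO (A_55_P2024155). The Derlin-2 groups did not overlap, and they differed both through a high second control and through a low second KO array, 0.37 below the next. KO minus control was, on the log2 scale, 0.03 (-0.37 to 0.44) in the Derlin-1 line and -0.36 (-0.77 to 0.04) in the Derlin-2 line, with an unadjusted p of 0.0720 and an adjusted p of 0.934 in limma for the latter. Without the second Derlin-2 control it was -0.23 and without the second KO array -0.18, and the dimmer probe A_66_P119534 gave -0.005.

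Pdk4, a kinase that inhibits pyruvate dehydrogenase during fasting and under glucocorticoids, differed from the other targets. It read a log2 signal of 8.62 and 8.65 in Derlin-1 controls, 8.46 and 8.70 in Derlin-1 KO, 8.43 and 8.46 in Derlin-2 controls, and 8.83 and 8.45 in Derlin-2 KO (A_51_P350453). The 2 Derlin-2 controls lay within 0.03 of each other, and the first Derlin-2 KO array was 0.37 above the next. KO minus control came to a log2 difference of -0.06 (-0.44 to 0.32) in the Derlin-1 line and 0.19 (-0.19 to 0.58) in the Derlin-2 line. The Derlin-2 value was 0.0075 without the first KO array and 0.38 without the second. Its only probe lies in row 372 of the 384 rows of the array.

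Hif3a, a member of the hypoxia-inducible factor family that glucocorticoids raise in brain, had the widest range of the 10. Its log2 signal was 7.43 and 6.78 in Derlin-1 controls, 7.31 and 6.94 in Derlin-1 KO, 6.93 and 7.85 in Derlin-2 controls, and 6.83 and 6.57 in Derlin-2 KO (A_55_P2015541). Both Derlin-1 KO arrays lay between the controls, and in the Derlin-2 line the second control was 0.92 above the first, which lay 0.10 above the nearer KO array. On the log2 scale KO differed from control by 0.02 (-0.86 to 0.89) in the Derlin-1 line and -0.69 (-1.57 to 0.18) in the Derlin-2 line (adjusted p for the latter 0.956, limma). It was -0.23 without the second Derlin-2 control and -1.15 without the first.

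The metallothioneins Mt1 and Mt2, small proteins that bind zinc and copper, are induced by glucocorticoids and by metal through separate elements, and their genes lie next to each other on mouse chromosome 8 together with Mt3 and Mt4. Their windows are shown for the metal response element core, TGCACNC or TGCGCNC, searched on both strands. The Mt1 window held 3 cores and the Mt2 window 4, while 1.97% of the 32851 windows held 3 or more and 0.517% held 4 or more. Neither window held the hexamer TGTTCT. The gene coordinates begin Mt1 at chr8:94178883, inside the stretch printed below as lying before the start of its window. Those of Mt2 begin at chr8:94172618, directly after its stretch. The counts of cores before the start are therefore not like for like between the 2 genes. The 250 bases before the start are on the plus strand at chr8:94178839-94179088 for Mt1 and at chr8:94172368-94172617 for Mt2 (RefSeq, GRCm38.p6), with the cores that lie before the start in capitals, 1 in Mt1 and 3 in Mt2:
Mt1: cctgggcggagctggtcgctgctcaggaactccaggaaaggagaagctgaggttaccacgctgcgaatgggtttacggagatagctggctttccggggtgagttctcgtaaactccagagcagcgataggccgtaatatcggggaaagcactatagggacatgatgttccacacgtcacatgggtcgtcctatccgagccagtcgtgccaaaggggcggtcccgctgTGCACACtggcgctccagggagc
Mt2: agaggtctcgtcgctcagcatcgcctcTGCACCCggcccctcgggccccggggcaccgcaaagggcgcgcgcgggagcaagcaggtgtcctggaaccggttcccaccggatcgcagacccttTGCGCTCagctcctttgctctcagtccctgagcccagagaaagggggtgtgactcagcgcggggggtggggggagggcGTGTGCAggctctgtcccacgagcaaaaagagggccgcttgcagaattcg

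Mt1 read a log2 signal of 16.80 and 17.15 in Derlin-1 controls, 16.88 and 16.87 in Derlin-1 KO, 16.79 and 17.60 in Derlin-2 controls, and 16.82 and 16.75 in Derlin-2 KO (A_66_P111660). The second Derlin-2 control was 0.78 above the next array, the other 3 arrays of that line lay within 0.07 of each other, and the second Derlin-1 control was 0.27 above the next. KO minus control was, on the log2 scale, -0.10 (-0.76 to 0.56) in the Derlin-1 line and -0.41 (-1.07 to 0.25) in the Derlin-2 line, with limma's adjusted p at 0.9997 and 0.984. Without the second Derlin-2 control the latter was -0.0015. The far dimmer Mt1 probe A_52_P423810, in row 364 of the array, gave 0.09 and 0.08 and was lowest on the second Derlin-2 control, so it did not share the pattern.

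Mt2 read a log2 signal of 16.15 and 16.60 in Derlin-1 controls, 16.12 and 16.10 in Derlin-1 KO, 16.37 and 17.06 in Derlin-2 controls, and 16.23 and 16.10 in Derlin-2 KO (A_51_P246317). Both KO arrays lay below both controls in each line, by 0.03 and 0.14 between the nearest arrays, and the second control stood 0.45 above the next array in the Derlin-1 and 0.69 in the Derlin-2 line. KO minus control came to a log2 difference of -0.27 (-0.89 to 0.36) in the Derlin-1 line and -0.55 (-1.18 to 0.07) in the Derlin-2 line, with unadjusted p-values of 0.339 and 0.0725 in limma. Without the second Derlin-2 control the latter was -0.21, and without the first it was -0.90. The Derlin-1 value was -0.039 without the second Derlin-1 control and -0.49 without the first.

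**Figure D2:**
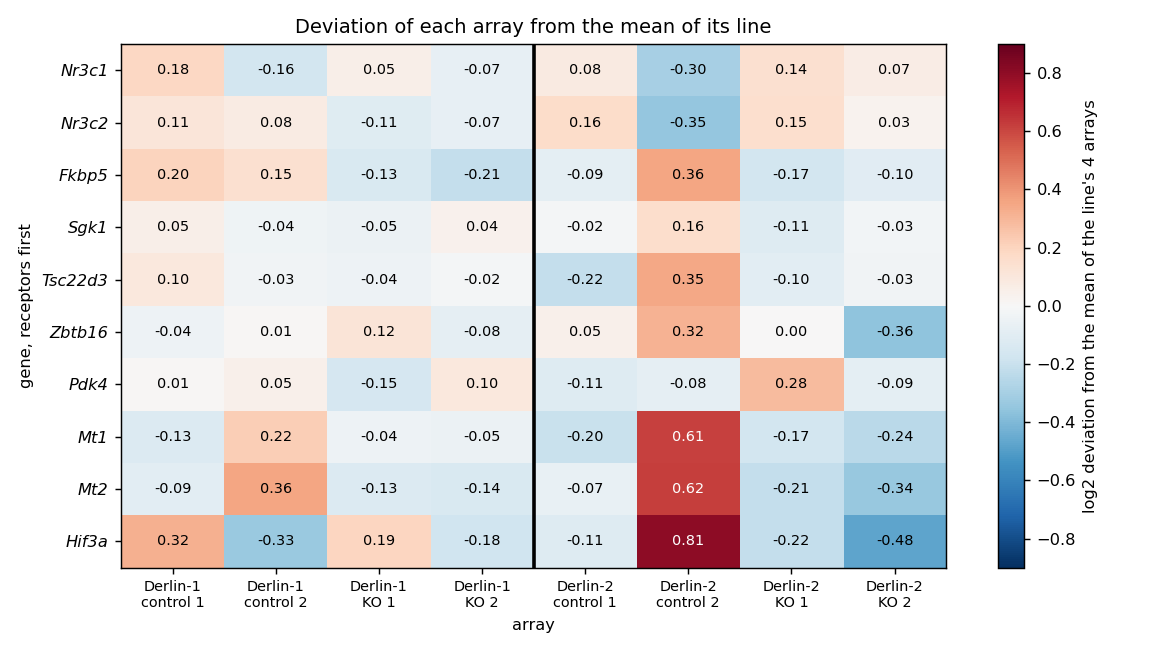
Deviation of each array (columns) from the mean of the 4 arrays of its line, on the log2 scale, for the 10 members (rows, receptors first), with red above and blue below the mean. On the second Derlin-2 control the targets deviated by 0.16 to 0.81 upwards, apart from Pdk4 at -0.08, and the receptors by -0.30 and -0.35.

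For 8 of the 10 members the widest departure from the mean of the line lay on the second Derlin-2 control. For Zbtb16 it lay on the second Derlin-2 KO array, at -0.36, and for Pdk4 on the first, at 0.28. On that control, 7 of the 8 targets had the highest value of the line and also of the 8 arrays, and both receptors had the lowest. The exception was Pdk4. The same 7 of 8 and 2 of 2 were counted within the line after scaling to the 75th percentile, after normexp background correction and with the median over the probes of a gene. In the deposited log2 values, 1 of the 2 Derlin-2 control columns, which are not matched to an array, gave 7 of 8 and 2 of 2, and the other 0 of 8 and 0 of 2. The median deviation of the 8 targets on this array was 0.35, against -0.17 to -0.10 on the other 3 arrays of the line and a median of -0.01 over all genes on the same array. The array was noticed for its values, so no test is given for it.

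Other genes gave that array's profile a mixed frame. Of 24 further glucocorticoid targets, 13 had the highest value of the Derlin-2 line on the second control and 4 the lowest, with a median deviation of 0.15. Named after their values were seen, the lipid droplet gene Plin4 stood 0.91 above the next array, the cell cycle inhibitor Cdkn1a 0.82 and the sulfotransferase Sult1a1 0.75. In contrast, Dusp1, a phosphatase that glucocorticoids and neuronal activity both raise, was lowest there. It read 9.59, against 9.80 to 10.33 on the other arrays of the line. The probes of Cdkn1a and Sult1a1 lie in array rows from 337 on, while those of Plin4 and Dusp1 do not. The part of array position in these values was not tested. The 18 genes that handle the hormone or its receptor include steroid-converting enzymes, chaperones and coregulators. Of these, 7 were highest of the line on the second Derlin-2 control and 7 lowest. Over all genes the shares on that array were 31.1% highest and 32.8% lowest.

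Markers of other cells are given beside the same array, where 31.1% of all genes were highest of the line and 32.8% lowest. There, of 7 microglia markers, 1 was highest and 4 lowest. Of 7 granule neuron markers, 3 were highest and 2 lowest, and of 8 CA pyramidal markers 2 and 3. All 6 measured blood genes, 5 of them globins, were highest of the Derlin-2 line on the second control, with a median deviation of 0.21. All 6 were also highest of the Derlin-1 line on its second control, with a median deviation of 0.77, against 23.1% of all genes. The probes of Hbb-b1 and Hbb-b2 lie in array rows from 337 on. The summed blood signal ranged from 15.73 to 16.86 on the log2 scale in the Derlin-1 line and from 16.32 to 16.65 in the Derlin-2 line. On the second Derlin-1 control Mt1 and Mt2 were the highest of their line, while Fkbp5, Sgk1, Tsc22d3, Zbtb16, Pdk4 and Hif3a were not. Choroid plexus markers summed to 12.12 on the second Derlin-2 control and 12.27 on the first Derlin-2 KO array, against 10.96 and 11.12 on the others of the line. Of 7 oligodendrocyte markers, 6 were lowest of the line on the second control. Their summed signal was 15.99 there and 16.37 to 16.57 on the other 3 arrays. The 10 astrocyte markers summed to 18.00 to 18.21 within the line, with the highest sum on the second control, where 4 of them were highest and 3 lowest. Of 9 endothelial markers, 5 were lowest of the line on the second control and 2 highest, with a median deviation of -0.087, while their summed signal ranged from 13.998 to 14.10 and was highest there. The part of these cells in the values of the members was not tested.

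**Figure D3:**
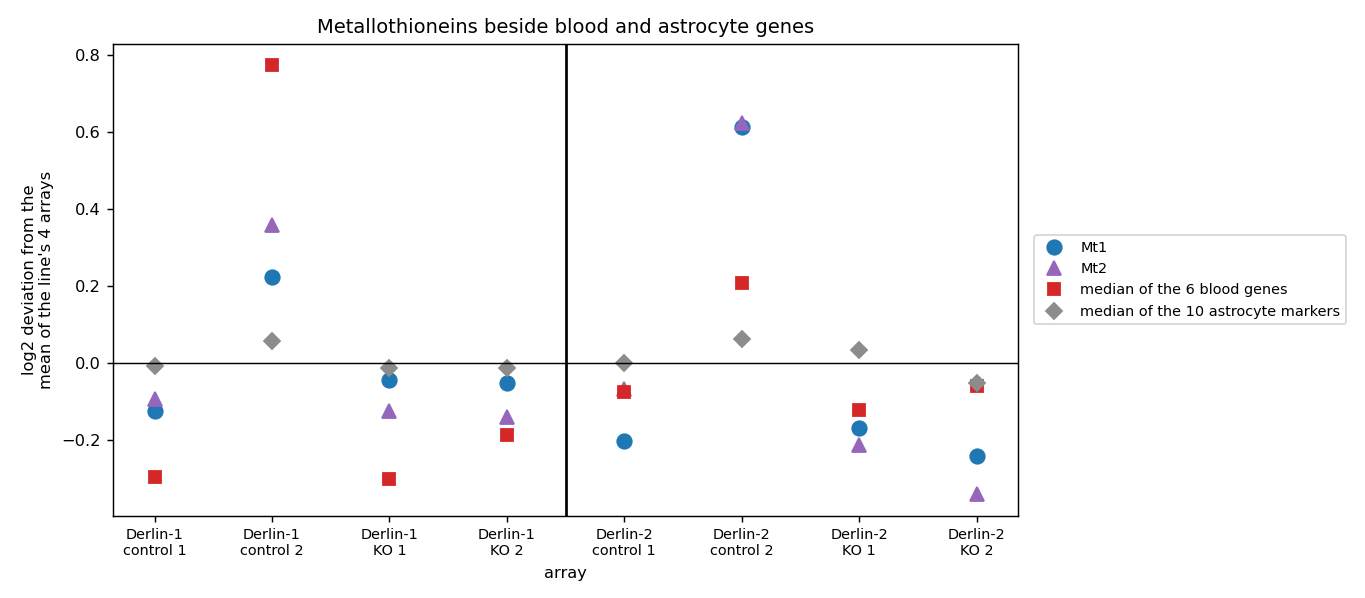
Log2 deviation from the mean of the line's 4 arrays (y axis) on each of the 8 arrays (x axis) for Mt1, Mt2, the median of the 6 blood genes and the median of the 10 astrocyte markers. Mt1 and Mt2 were highest on the second control of each line, at 0.22 and 0.36 in the Derlin-1 line and 0.61 and 0.62 in the Derlin-2 line, as were the blood genes at 0.77 and 0.21.

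Across the 8 arrays, with the mean of each line subtracted, the correlations between members changed when that array was left out. Of the 45 pairs, 38 had a smaller absolute Pearson r without it and 7 a larger one, 26 changed sign, and the median absolute r went from 0.66 to 0.28. The Pearson r of Fkbp5 with Tsc22d3 was 0.78 over 8 arrays and 0.34 without the second Derlin-2 control, and that of Sgk1 with Tsc22d3 went from 0.83 to 0.27. For Tsc22d3 with Mt1 the r turned from 0.80 to -0.42, and for Nr3c2 with Mt1 from -0.78 to 0.28. Mt1 and Mt2 kept an r of 0.89 without that array, against 0.96 with it, and Nr3c1 with Mt1 gave -0.76 against -0.90. Among the pairs with a larger absolute r without it were Nr3c1 with Hif3a (-0.37 to 0.90), Nr3c2 with Fkbp5 (-0.42 to 0.81) and Tsc22d3 with Zbtb16 (0.47 to -0.70), named after their values were seen. These are descriptions over 8 or 7 arrays that share slides and a common normalization. The array left out was noticed for its wide deviations in the members, so a smaller r without it follows in part from that choice. With 8 arrays and so many genes, some gene outside the members reaches a high r in any case. The genes named next therefore say nothing on the likeness of the members to each other. Among 18054 genes well above background on all arrays, those most like a member were no members: Nf2 for Nr3c1 (r 0.99), 4930526I15Rik for Nr3c2 (0.97), Fam213a for Fkbp5 (0.99), A830035O19Rik for Sgk1 (0.98), Col6a4 for Tsc22d3 (0.99), A130094D17Rik for Zbtb16 (0.97), Ddr1 for Pdk4 (0.98), Eefsec for Mt1 (0.99), Adhfe1 for Mt2 (0.99) and Pcdhb14 for Hif3a (0.98).

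**Figure D4:**
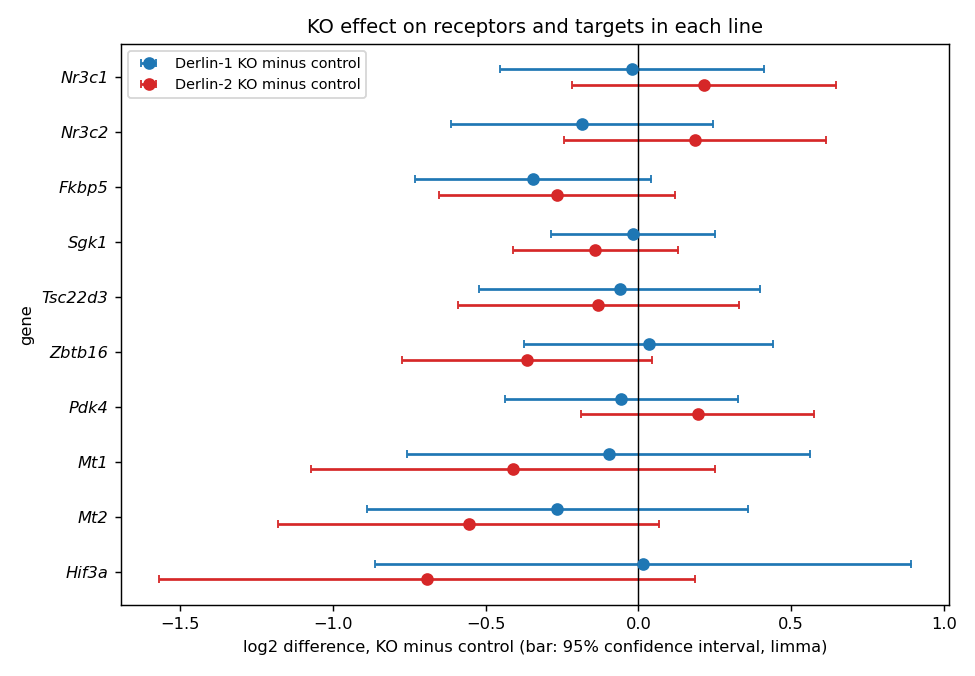
Log2 difference, KO minus control (x axis), of the 10 members (y axis) in the Derlin-1 line (blue) and the Derlin-2 line (red), with 95% confidence intervals from limma. All 20 intervals include 0, and they run from -1.57 for Hif3a to 0.89 for Hif3a.

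The confidence intervals of the members differed in width. Sgk1 was bounded most tightly, at -0.41 to 0.13 in the Derlin-2 line, and Hif3a least, at -1.57 to 0.18. The difference between the lines, Derlin-1 minus Derlin-2, ran from -0.37 for Nr3c2 to 0.71 for Hif3a (95% confidence interval -0.53 to 1.95), with adjusted p-values of 0.893 to 0.997 in limma. With 2 arrays a group, the smallest two-sided p of an exact permutation test is 0.333.

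Leaving out either Derlin-2 control moves the Derlin-2 values by equal amounts in opposite ways by construction, since the control mean lies midway between its arrays. The values below therefore show only how far apart the controls lay. Without the first control the log2 difference of Mt1 was -0.82, and without the second it was -0.0015. In the same order, Hif3a gave -1.15 and -0.23, Sgk1 -0.23 and -0.05, and Nr3c2 0.44 and -0.07. A lone control array is taken in these fits to vary like the other groups, so only the differences are given.

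**Figure D5:**
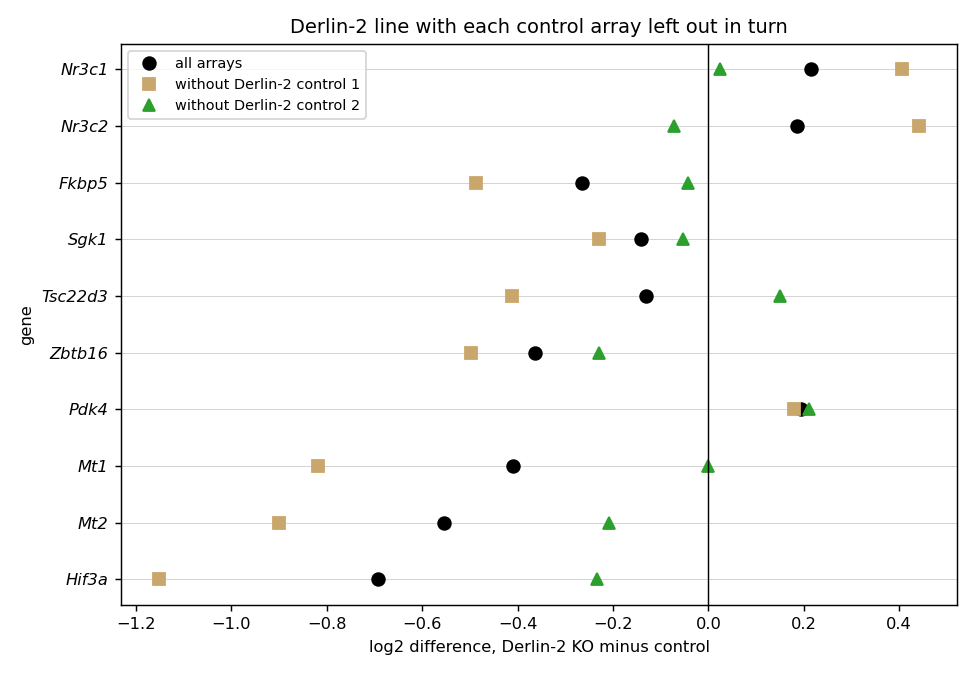
Log2 difference of Derlin-2 KO minus control (x axis) for the 10 members (y axis), with all arrays (black circles), without the first control (brown squares) and without the second control (green triangles). Squares and triangles lie at equal distances on either side of the circles by construction. Without the second control Mt1 lies at -0.0015, and Nr3c2 and Tsc22d3 change sign, to -0.07 and 0.15.

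The wider pathway gave no call either. Of the 24 further targets, 0 passed the adjusted threshold in either line. At an unadjusted p of 0.05, 0 passed in the Derlin-1 line, against 4.24% of all genes. In the Derlin-2 line 1 did, against 4.76% of all genes. This was Mertk, a receptor for engulfing dying cells, at -0.52 (SE 0.19, unadjusted p 0.033, adjusted p 0.849 in limma), and it too was highest on the second control, by 0.55. The smallest p-values after it in the Derlin-2 line belonged to Ddit4, an inhibitor of mTOR signalling, at 0.27 (SE 0.14), and the clock gene Per1 at -0.23 (SE 0.13). In the Derlin-1 line they belonged to the repressor Bcl6 at 0.28 (SE 0.14), the small GTPase Rasd1 at 0.25 (SE 0.12) and the transcription factor Cebpd at -0.28 (SE 0.21). Bcl6 and Rasd1 had both KO arrays above both controls in each line. In the Derlin-1 line this held for 6 of the 24, against 17.2% of all genes, and 0 had both below, against 16.9%. In the Derlin-2 line 4 had both above, against 19.2%, and 5 both below, against 13.6%. The median difference of the 24 was -0.08 in the Derlin-2 line and -0.00084 in the Derlin-1 line.

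Of the 18 genes measured that handle the hormone or its receptor, 0 passed either threshold in either line. Over all genes, 4.24% (Derlin-1 line) and 4.76% (Derlin-2 line) passed the unadjusted one. Hsd11b2, which inactivates corticosterone, was not well above background. Hsd11b1, which regenerates active corticosterone, read a log2 signal of 12.47 and 12.37 in Derlin-1 controls and 12.47 and 12.45 in Derlin-1 KO, and 11.93 and 11.64 in Derlin-2 controls against 12.13 and 12.04 in Derlin-2 KO. Both Derlin-2 KO arrays were above both controls, and the difference of 0.30 (SE 0.13) did not pass the test (adjusted p 0.918, limma). Srd5a1, which reduces steroids in the brain, had the same order of arrays in that line, with a difference of 0.28 (SE 0.12). In the Derlin-1 line, 7 of the 18 had both KO arrays below both controls, against 16.9% of all genes, and 2 had both above, against 17.2%, with a median difference of -0.03.

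Among the 7 other members of the steroid receptor family, 0 passed the adjusted threshold. At an unadjusted p of 0.05, 1 passed in the Derlin-1 line, against 4.24% of all genes, and 0 in the Derlin-2 line, against 4.76%. The 1 was the estrogen receptor gene Esr2, higher in the Derlin-1 KO by 0.58 (SE 0.21, unadjusted p 0.030, adjusted p 0.9997 in limma). Its difference in the Derlin-2 line was -0.21. Of 7 further genes of the metal response, 0 passed either threshold in either line. Mt3, the brain metallothionein, differed by -0.06 and -0.20. Like Mt1 and Mt2 it was highest on the second control of each line, at 13.17 and 12.70. Its probe lies in array rows from 337 on. Of 9 genes related to Pdk4 and Hif3a, 0 passed either threshold in either line.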

How the data were processed

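Total RNA of the dentate gyrus was labelled with Cy3 and hybridised to 8 Agilent mouse arrays of the 1-colour kind. In the deposited scanner output, the intensity of a spot is given after background subtraction by Agilent Feature Extraction (version 10.7.1.1 in the submitters' processing notes), beside flags that mark outlier spots and spots well above background. In the tables made by the authors, the values are log2 signals quantile-normalized in GeneSpring and set against each probe's median over their samples; these deposited log2 values were used as an alternative only. Columns of the authors' comparisons (fold changes and regulation) were not used.

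Signals of the 59305 gene spots below 1 were set to 1, and log2 signals were quantile-normalized together. Outlier spots were dropped and the spots of 300 repeated probes averaged. A probe was kept when well above background on both arrays of at least 1 group. Gene symbols are those of the deposited tables, joined by probe name, and a gene is given by its brightest kept probe. A model of 4 group means was fitted with limma (version 3.58.1, R version 4.3.3), with 4 residual and 2.07 prior degrees of freedom, with Benjamini-Hochberg adjustment over 39981 (Derlin-1), 39812 (Derlin-2) and 39810 probes (difference between lines). The tests are two-sided, and the fit was tested on simulated data. Counts over genes use the brightest probe.

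The members and all gene lists were chosen with earlier results of these data known. All members are named with every kept probe, from each list the 3 genes with the smallest p in a line were eligible to be named, and for each member the gene with the highest r over the arrays is given. Alternatives were another scaling, normexp background correction (with the median spot signal, as the files used here hold no mean), other filters, single-line fits, the deposited values, the median over probes, leaving out each array or array rows from 337 on, a replicate term and a robust prior. The number of arrays limits the precision. Promoter sequences are from RefSeq (GRCm38.p6), a build other than that of the array design, and Nr3c1 and Zbtb16 were not searched.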

Additional observations from a re-analysis of the deposited data

How the results depend on the processing

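Over 18 alternatives, 507 of the 527 member differences kept their sign and 20 changed it. Filters, single-line fits, the replicate block, leaving out array rows and the robust prior return the same differences, so their signs could not change. Leaving out an array likewise keeps the differences of the other line. Among the alternatives that kept both arrays of every group fitted, 0 members passed the adjusted threshold (limma). Members with both Derlin-2 KO arrays below both controls, 5 of 10, were 2 after scaling to the 75th percentile and 1 in the deposited values. Members with both above, 0 of 10, were 1 with that scaling, 1 with normexp, 1 in the deposited values and 2 with the median over probes. Members past an unadjusted p of 0.05, 0 in each line, were 1 (Derlin-1 line, Fkbp5) and 2 (Derlin-2 line, Sgk1 and Zbtb16) with normexp, 1 (Fkbp5) and 1 (Zbtb16) with the intensity trend and robust prior, and 1 in the Derlin-1 line (Fkbp5) in the fit of its 4 arrays alone. In the main fit 4.24% of all genes passed that p in the Derlin-1 and 4.76% in the Derlin-2 line. The shares of all genes under the other settings were not counted. In the Derlin-1 line, Pdk4 turned to 0.013 with the 75th percentile, Hif3a to -0.042 with normexp, and Zbtb16 to -0.0094 in the deposited values and -0.039 with the median over probes. The cause was not tested.

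Leaving out 1 array at a time, the members past an unadjusted p of 0.05 ranged from 0 to 1 (Derlin-1 line), 0 to 7 (Derlin-2 line) and 0 to 3 (difference between lines). The Derlin-1 differences that changed sign ranged from -0.19 to 0.15 for Nr3c1, -0.063 to 0.029 for Sgk1, -0.13 to 0.0048 for Tsc22d3, -0.065 to 0.13 for Zbtb16, -0.18 to 0.067 for Pdk4, -0.27 to 0.078 for Mt1 and -0.31 to 0.34 for Hif3a. Those of the Derlin-2 line ranged from -0.072 to 0.44 for Nr3c2 and -0.41 to 0.15 for Tsc22d3. The differences between lines ranged from -0.30 to 0.14 for Fkbp5, -0.21 to 0.35 for Tsc22d3, -0.10 to 0.72 for Mt1 and -0.057 to 0.63 for Mt2.

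Over all probes, 0 (Derlin-1 line), 18 (Derlin-2 line) and 3 (difference) passed the adjusted threshold. The Derlin-2 count was 2 with normexp, 29 with no filter, 2 with probes above background on all arrays, 0 with the line's arrays alone, 4 without the last array rows and 3 with the robust prior. The count for the difference was 5 with the 75th percentile, 5 with the median over probes and 0 with normexp, with no filter, with the stricter filter, without the last array rows and with the robust prior. Without 1 array the counts ranged from 0 to 1, from 4 to 54 and from 0 to 20. With a replicate block, 0 members and 0 probes passed the adjusted threshold in the Derlin-2 comparison or for the difference, and same-numbered samples deviated with a correlation of 0.27 (Derlin-1) and -0.10 (Derlin-2), over 2 numbers only, so they share no more than a number. Pdk4 has no value without the last array rows, where its only probe lies.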
